A study of Mus musculus with 28 samples.

Results

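Transcripts typical of neutrophils, monocytes and macrophages were followed in RNA of sorted mouse T cells: Lyz2, S100a8, S100a9, Csf1r, Itgam, Cd14, Pirb and Plbd1. These 8 genes are 8 of 19441 genes kept from the arrays. A probe was taken where its name, current or older, is one of the 8 (Lyzs stands for Lyz2, Lilrb3 for Pirb and 1100001H23Rik for Plbd1), and where it was well above background on at least 3 of 28 arrays. The brightest such probe stands for its gene. The probes were thus selected on measured detection and brightness, and the genes were chosen with earlier results of these arrays known. All 8 passed, on 13 arrays for Itgam, the fewest, up to 26 for Csf1r. Of the probes left aside, the dimmest one of Csf1r passed on 4 arrays and the other one of Itgam on 5.

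The T cells came from BALB/c mice, young at 4 months or old at 20 months, sorted as CD4 or CD8 cells. They were measured unstimulated (0 h) or after 4, 12, 24 or 72 h on plates coated with stimulating antibodies to CD3, part of the antigen receptor, and to CD28, its costimulatory partner. No group carries a genetic change. There are 3 arrays for each of the 4 groups at 0 h (young CD4, old CD4, young CD8, old CD8) and a single one for each of 16 stimulated groups. RNA for a time point was a pool from 4 sortings done on different days, and the repeats at 0 h are labelled as repeats of a pool, so the spread between them may be technical. The labels disagree on the gate: the titles and growth protocol give CD62Llo/CD44hi, whereas the descriptions and the design give CD62Lhi/CD44lo, and the cells are called naive. Of 14 T cell genes (Cd3d, Cd3e, Lck, Thy1, Cd4, Cd8a, Cd8b1 and others), all 14 were well above background on each 0 h array and 11 to 14 on each stimulated array. At 0 h the markers of the other cell type, Cd8a and Cd8b1 in CD4 cells and Cd4 in CD8 cells, were thus also detected.

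Neutrophils and monocytes carry large stores of antimicrobial protein made from a few very abundant transcripts, so that a small number of such cells can add a measurable amount of their RNA to that of lymphocytes. S100a8 and S100a9 encode the subunits of calprotectin, a calcium-binding protein that makes up much of the neutrophil cytosol. Lyz2 encodes lysozyme M. Csf1r is the receptor on which most macrophages depend, Itgam the alpha chain of the complement receptor CR3 (CD11b), Cd14 a coreceptor for bacterial lipopolysaccharide, and Pirb an inhibitory receptor for MHC class I molecules. Plbd1 encodes a phospholipase B-like protein of granules. In RNA from a whole sorted population, fewer cells of a type and less RNA per cell cannot be told apart.

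S100a8 and S100a9 are neighbours on mouse chromosome 3, and of all 28 pairs among the 8 genes their levels followed each other most closely. Their start regions are shown for that reason, as RefSeq gives them on GRCm38.p6, each with 250 bases before the annotated start and the first 30 after it. The S100a8 region is chr3:90668821-90669100 on the plus strand and the S100a9 region chr3:90695692-90695971 on the minus strand. Capitals mark matches, on either strand, to 3 motifs: GAGGAA (a core bound by PU.1, printed as TTCCTC where it lies on the other strand), TTGCNNAA (a C/EBP pattern) and TATAAA (the TATA box).
S100a8: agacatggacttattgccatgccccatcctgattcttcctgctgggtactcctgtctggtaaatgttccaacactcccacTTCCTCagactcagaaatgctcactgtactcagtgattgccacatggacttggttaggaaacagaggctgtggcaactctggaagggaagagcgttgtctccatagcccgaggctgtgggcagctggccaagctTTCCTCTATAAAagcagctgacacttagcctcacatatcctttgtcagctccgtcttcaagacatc
S100a9: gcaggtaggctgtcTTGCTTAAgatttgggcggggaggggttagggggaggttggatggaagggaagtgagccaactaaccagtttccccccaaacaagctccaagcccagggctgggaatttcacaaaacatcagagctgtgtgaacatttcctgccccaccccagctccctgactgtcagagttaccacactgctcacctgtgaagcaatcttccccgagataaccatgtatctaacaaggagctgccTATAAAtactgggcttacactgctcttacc
S100a8 held TATAAA 30 bases before its start and GAGGAA on the other strand 36 and 170 bases before it, the nearer one directly in front of the TATA box. S100a9 held the C/EBP pattern 236 bases before its annotated start and TATAAA at that start. Among 32851 promoters of 300 bases, 28.3% held GAGGAA, 10.8% TTGCNNAA and 13.6% TATAAA. Of the other 4 genes with an entry, Pirb and Itgam held GAGGAA at 3 places each, and Lyz2 and Plbd1 held none of the 3 motifs. A match describes the letters and is not a binding site shown by these arrays.

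Levels are log2 intensity minus the 75th percentile of the array, so a level of 0 lies at that percentile and each step of 1 is a doubling. A difference is said to be called where its limma p, adjusted over all genes, was under 0.05. A level compares arrays for a probe, not probes with each other. On mm7, the build of the probe positions in the files, the Lyz2 probe lies at chr10:116785279-116785338, S100a8 at chr3:90800058-90800117, S100a9 at chr3:90822865-90822924 and Plbd1 at chr6:136629236-136629295. The Itgam probe is at chr7:124214519-124214578, Pirb at chr7:3335515-3335574, Cd14 at chr18:37101516-37101575 and Csf1r at chr18:61519183-61519543. The Csf1r coordinates span 361 bases and the others 60. Whether a probe lies in a coding exon or an untranslated one was not determined here. Lyz2 has a close paralog, Lyz1, and Pirb lies in a family with the Pira genes, so signal from those relatives may enter these probes. A second Lyz2 probe differed from the first by -5.05 on average and correlated with the first at 0.80 over 28 arrays. A second Pirb probe, which overlaps the first, correlated at 0.99. The second probes of Csf1r (0.85) and Itgam (0.70) followed the first less closely. No spot of the 8 probes was saturated.

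The 12 arrays at 0 h lie on 4 slides, numbered here 1 to 4, and each slide holds both ages of 1 cell type. Slide 1 has 4 CD4 arrays and slide 2 the other 2, read with another scanner model (G2505B, not G2505C) and software version. Slide 3 has 4 CD8 arrays and slide 4 the other 2. The spread between arrays of a group was taken over probes well above background on both arrays of a pair, which leaves out dim probes. Its standard deviation was 0.162 to 0.415 for arrays on the same slide and 0.665 to 0.951 for arrays on different slides. The 75th percentile was 120.6 to 874.5 intensity units, with the CD4 arrays at 12, 24 and 72 h among the dimmest (120.6 to 275.0), and 16972 to 28803 probes were well above background.

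**Figure D1:**
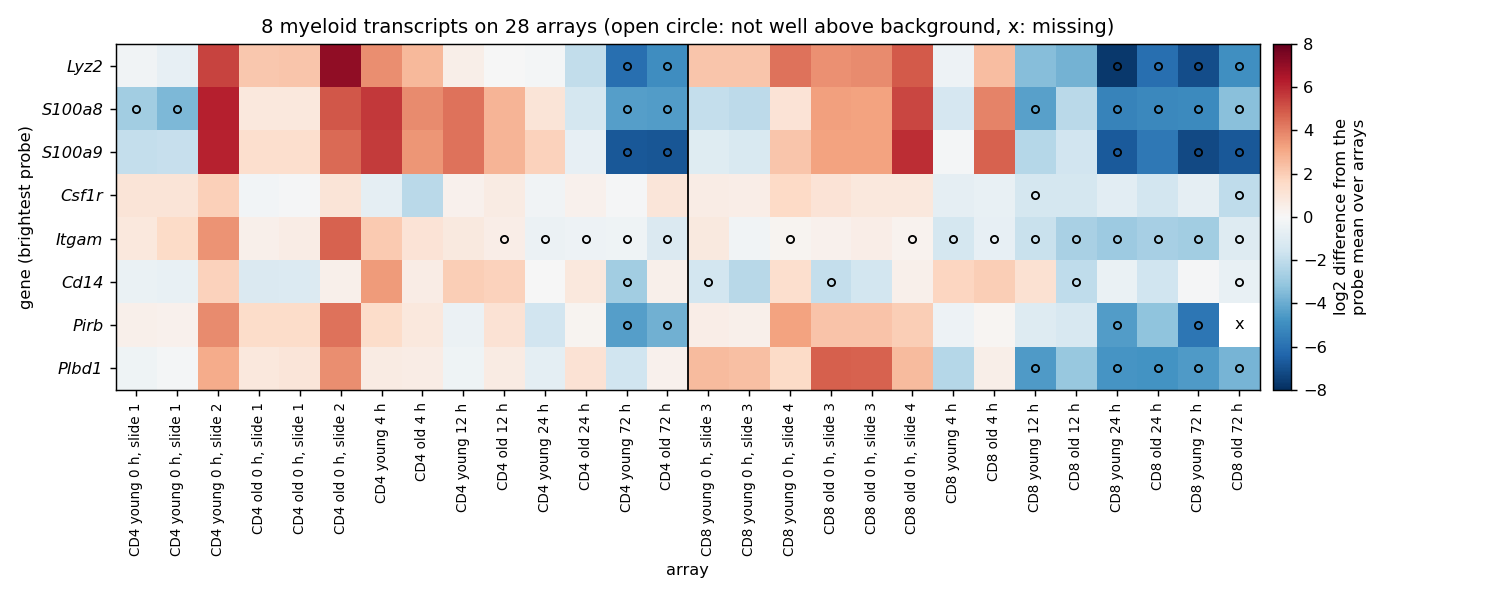
Levels of the 8 transcripts (rows, brightest probe) on the 28 arrays (columns), drawn as the log2 difference from each probe's mean over the arrays. Open circles mark values not well above background and x a missing one. Slide 2 is red throughout for both ages, S100a8 and S100a9 are red at 4 h in young CD4 and in old CD4 and CD8 cells, and most CD8 fields are blue from 12 h on.

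At 0 h the calprotectin transcripts S100a8 and S100a9 varied over the widest ranges of the 8, and their levels separated old from young CD8 cells but not old from young CD4 cells. In old CD8 cells S100a8 stood at 1.52, 1.47 and 3.59, the last on slide 4. In young CD8 cells it stood at -3.67 and -3.87 on slide 3 and at -0.69 on slide 4. All 3 old arrays lay above all 3 young ones, and on both slides. In old CD4 cells S100a8 stood at -0.94 and -0.93 on slide 1 and 3.17 on slide 2. In young CD4 cells the values were -4.57 and -5.38 on slide 1, neither well above background, and 4.43 on slide 2. The slide 2 array of the young cells was thus the highest of all 12, and the slide 1 arrays of the same cells the lowest.

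S100a9 showed the same layout. Its levels in old CD8 cells were 4.38, 4.36 and, on slide 4, 7.08. In young CD8 cells they were 0.16 and -0.05 on slide 3 and 3.38 on slide 4. Again no young CD8 array reached an old one. In old CD4 cells S100a9 stood at 2.50 on both arrays of slide 1 and 5.64 on slide 2, and in young CD4 cells at -0.78 and -0.72 on slide 1 and 7.28 on slide 2. Old was above young on slide 1 and below it on slide 2.

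Lyz2, the lysozyme gene of granulocytes and macrophages, was above background on all 12 arrays at 0 h. In old CD4 cells it stood at 2.40 and 2.48 on slide 1 and 7.36 on slide 2, and in young CD4 cells at -0.04 and -0.39 on slide 1 and 5.66 on slide 2. In old CD8 cells the levels were 3.93 and 4.01 on slide 3 and 5.18 on slide 4, against 2.44 and 2.45 on slide 3 and 4.57 on slide 4 in young CD8 cells. Old exceeded young on each of the 4 slides, yet over all arrays of a cell type the ages overlapped.

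Pirb, the inhibitory receptor, and Plbd1, the granule protein, also lay higher in old than in young cells on slides 1, 2 and 3. Pirb stood at 0.12 and 0.11 in old and -0.95 and -1.04 in young CD4 cells on slide 1, and at 2.94 in old and 2.38 in young cells on slide 2. In CD8 cells Pirb stood at 0.91 and 0.93 in old and -0.85 and -0.96 in young cells on slide 3, but at 0.60 in old and 1.81 in young cells on slide 4. Slide 4 therefore had the ages the other way round for this gene. Plbd1 stood at -0.76 and -0.67 in old and -1.97 and -1.74 in young CD4 cells on slide 1, and at 2.13 and 1.34 on slide 2. In CD8 cells Plbd1 stood at 3.17 and 3.14 in old and 0.92 and 0.79 in young cells on slide 3, and at 0.90 and -0.06 on slide 4. It was the only one of the 8 whose CD8 arrays were lower on slide 4 than on slide 3 by a called difference.

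Among the surface receptors, Csf1r lay between -3.49 and -1.35 over the 12 arrays, and in CD4 cells each old array (-3.49, -3.33 and -2.22) lay below each young one (-2.21, -2.20 and -1.35). Itgam stood at -4.17 to -3.03 on slide 1, at -1.02 and 0.13 on slide 2, at -4.85 to -3.80 on slide 3 and near -4.33 on slide 4, where it was not well above background. Only slide 2 was set apart for this gene. Cd14 stood at -4.23 to -3.63 on slide 1, -2.64 and -1.23 on slide 2, -5.31 to -4.55 on slide 3 and -2.69 and -1.72 on slide 4. Both small slides were thus higher than both large ones.

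**Figure D2:**
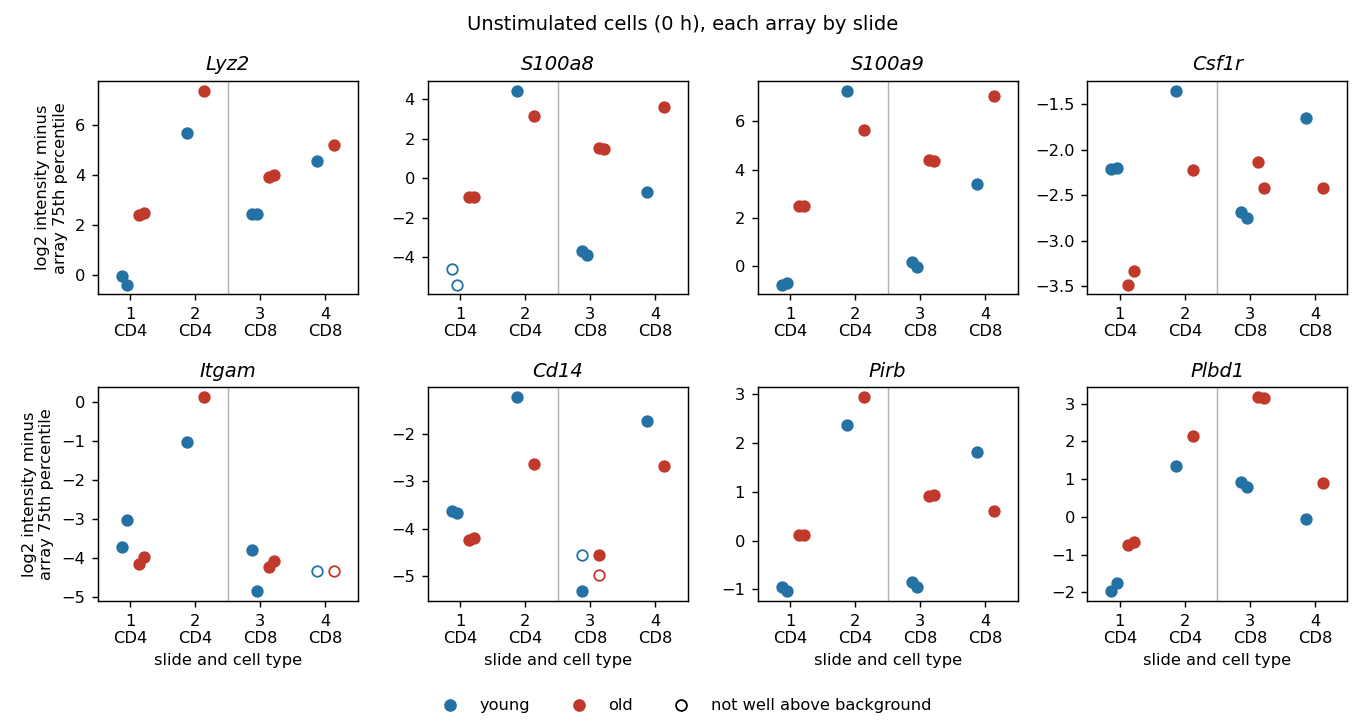
Each array at 0 h, with level (log2 intensity minus the array's 75th percentile) against slide and cell type, in blue for young and red for old cells; open points are not well above background. S100a8 and S100a9 have old above young on slides 1, 3 and 4 and the reverse on slide 2.

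Tested over the 12 arrays with the spread between slides in the error, none of the 8 differed between old and young cells. In CD8 cells S100a8 was 4.94 ± 2.33 (SE) higher in old cells (limma adjusted p = 0.47), with group means of 2.20 ± 1.21 and -2.74 ± 1.78 (SD, n = 3 each). The difference for S100a9 in CD8 cells was 4.11 ± 2.05 (adjusted p = 0.51). In CD4 cells Lyz2 stood 2.34 ± 1.71 higher in old cells (adjusted p = 0.53) and S100a8 2.27 ± 2.33 (adjusted p = 0.67). Over all genes 1.73% were called in CD4 (1.21% higher and 0.52% lower in old) and 2.21% in CD8 cells (1.69% higher and 0.52% lower), against 0 of 8 here in either. At an unadjusted p under 0.05 the counts over all genes were 3331 and 2228. The median difference of the 8 was 0.98 in CD4 and 1.02 in CD8 cells, beside medians of -0.03 and -0.05 over all genes. The CD4 median was 0.03 without CD4 old replicate 3, 0.33 and 0.32 without CD4 young replicate 1 or 2, and 2.07 without CD4 young replicate 3. The CD8 median was 1.63 without CD8 young replicate 1, and 0.63 and 0.60 without replicate 2 or 3. Old and young arrays did not overlap for Csf1r in CD4 cells (1 of 8, lower in old, where 11.8% of all genes were so and 26% in either direction) and for S100a8 and S100a9 in CD8 cells (2 of 8, higher in old, where 10.7% of all genes were so and 21.8% in either direction).

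With slide as a block, 3 of 8 were called in CD4 and 4 of 8 in CD8 cells. In CD4 cells Lyz2 (2.34, adjusted p = 0.0016) and Plbd1 (1.03, adjusted p = 0.027) were higher and Csf1r (-1.09, adjusted p = 0.017) lower in old cells. In CD8 cells S100a8 (4.94, adjusted p = 0.017), S100a9 (4.11, adjusted p = 0.023), Lyz2 (1.22, adjusted p = 0.023) and Plbd1 (1.86, adjusted p = 0.0042) were higher in old cells. The block called 4440 of all genes in CD4 and 1865 in CD8 cells, against 337 and 430 without it. When the 2 arrays of a group on the same slide were averaged first and counted as 1, as an alternative added after seeing the data, 0 of 8 and 0 genes in all were called in either cell type. The difference between the age differences of the cell types was called for 0 of 8 (0.0514% of all genes), at 2.67 ± 3.29 for S100a8 (adjusted p = 0.79).

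Slide by slide, the age difference of the calprotectin genes had 1 sign on slides 1, 3 and 4 and the other on slide 2. Lone arrays are assumed here to vary as same-slide pairs do, whose spread was small, so these p-values speak of arrays on a slide and not of slides. On slide 1, 6 of 8 were called (31.6% of all genes), 5 of them higher in old CD4 cells (15.8%): S100a8 (4.04 ± 0.26, at least 10.6-fold given that the young arrays were at background), S100a9 (3.25 ± 0.09), Lyz2 (2.66 ± 0.12), Plbd1 and Pirb. On slide 2, 7 of 8 were called (41.2%), with S100a8 (-1.26 ± 0.37) and S100a9 (-1.63 ± 0.12) lower and Lyz2 (1.70 ± 0.18) higher in the old array. The change of the CD4 age difference from slide to slide was itself called for 4 of 8 (22.9%), S100a8 (adjusted p = 0.0056, no size given because of the young arrays at background), S100a9 (4.88 ± 0.15, adjusted p = 0.0024), Lyz2 (0.96 ± 0.22, adjusted p = 0.033) and Pirb (0.54 ± 0.12, adjusted p = 0.033). It was called for 2 when CD4 old replicate 1 or replicate 2 was left out.

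In CD8 cells both slides had S100a8 and S100a9 higher in old cells. On slide 3 the differences were 5.27 ± 0.26 for S100a8, or 38.6-fold, and 4.32 ± 0.09 for S100a9, or 19.9-fold. On slide 4 they were 4.29 ± 0.37 and 3.69 ± 0.12, or 19.5-fold and 12.9-fold. Of the 8, 6 were called on slide 3 (30.8% of all genes), each higher in old cells (14.6%), and 5 on slide 4 (14.9%), 3 of them higher (8.28%) and 2 lower (6.65%). The change of the age difference between slides 3 and 4 was called for Pirb (3.04 ± 0.12, adjusted p = 0.0022), Plbd1 (1.34 ± 0.17, adjusted p = 0.017) and Csf1r (1.21 ± 0.20, adjusted p = 0.029), 3 of 8 against 9.26% of all genes (4.54% with the larger difference on slide 3). Pirb and Csf1r had turned to lower in old cells on slide 4, at -1.22 and -0.77.

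The slides themselves differed as well. Averaged over age, all 8 were higher on slide 2 than on slide 1, where 63.5% of all genes were called and 39.8% called higher. S100a8 was called higher (adjusted p = 8.7e-05), with no size given because 2 of its 4 arrays on slide 1 were not above background. S100a9 was higher by 5.58 ± 0.07, Lyz2 by 5.40 ± 0.11 and Itgam by 3.28 ± 0.35. Pirb (3.10), Plbd1 (3.02), Cd14 (1.99) and Csf1r (1.02) followed. The median of the 8 was 3.19 against 0.24 over all genes. In CD8 cells, 6 of 8 were higher on slide 4 than on slide 3 (45.3% called, 27.2% higher), led by S100a9 (3.02), Cd14 (2.64) and S100a8 (2.59), with Plbd1 lower (-1.58, 18.1% called lower). Their median was 1.43 against 0.12. The comparison of slides, like the contrast of the age differences after stimulation, was added after the data were seen.

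Markers of several cell types moved with the slides as well. Of 17 neutrophil genes detected in the list (Ly6g had no probe), 16 were higher on slide 2 than on slide 1 (median 4.02) and 14 on slide 4 than on slide 3 (median 1.95), with none lower. Of 27 monocyte and macrophage genes, 25 and 20 were higher, medians 2.41 and 1.64. On slide 2 against slide 1, 5 of 5 basophil and mast cell genes (median 2.48), 4 of 6 NK cell genes, 4 of 7 dendritic cell genes and 9 of 15 B cell genes were also called higher. In that order 0, 1, 0 and 1 were called lower, and of 5 erythroid and platelet genes 1 was higher and 3 lower. Over all genes 39.8% were called higher and 23.7% lower. On slide 4 against slide 3 the same lists in that order had 3, 1, 2 and 3 higher and 0, 1, 1 and 4 lower. There 0 of 5 erythroid and platelet genes were higher and 2 lower, beside 27.2% and 18.1% of all genes. The log2 of the summed neutrophil level ran from -1.34 to -0.11 on slide 1, 3.13 to 5.03 on slide 2, -1.36 to 1.61 on slide 3 and 1.26 to 4.21 on slide 4. On those slides 1 to 8, 15 to 17, 4 to 12 and 13 of the 17 were well above background. For monocytes and macrophages the counts were 16 to 22, 26 to 27, 17 to 24 and 22 to 23 of 27. The mean level of the T cell genes was 3.98 to 4.22, 3.81 to 3.99, 4.92 to 4.97 and 4.72 to 4.93. The list holds Cd4, Cd8a and Cd8b1, and CD8 minus CD4 ran from -2.97 to 9.21 over its genes, with a median of 0.05. Single T cell genes moved both ways. On slide 2 against slide 1, 4 of 14 were called higher and 7 lower (median -0.17). On slide 4 against slide 3, 2 were higher and 4 lower (median -0.12). The part of other cells, of the scanner or of the slide in the levels of the 8 was not tested.

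The same lists were set beside the age comparison. In CD8 cells at 0 h, none of 17 neutrophil genes and none of 27 monocyte genes were called, though 15 and 24 had a positive difference, with medians of 1.37 and 0.63. Largest were Camp (5.53, adjusted p = 0.41), Ngp (5.23, adjusted p = 0.37) and Ltf (4.98, adjusted p = 0.44), which encode proteins of neutrophil granules. The 2 CD8 slides differed for the monocyte list. On slide 3, 20 of 27 were called higher in old cells and 0 lower (median 1.32). On slide 4, 3 were higher and 11 lower (median -0.63). Neutrophil genes had 9 of 17 higher and 1 lower on slide 3, and 7 and 0 on slide 4. Over all genes 14.6% were higher and 16.2% lower on slide 3, and 8.28% and 6.65% on slide 4. In CD4 cells 6 of 17 neutrophil genes were positive, with a median of -0.48, from Padi4 at -2.26 to Camp at 2.22. On slide 2 alone 10 of the 17 were lower in old CD4 cells and none higher, whereas on slide 1, 6 were higher and 1 lower. In the monocyte list, Ccr2, a chemokine receptor also found on T cells, led in both cell types, at 2.86 in CD4 (adjusted p = 0.16) and 2.85 in CD8 cells (adjusted p = 0.19). C1qa, a complement gene of macrophages, stood at -0.93 in CD4 cells. Of 7 regulators of the myeloid lineage, Cebpb (1.01) had the largest difference in CD4 and Cebpd (1.84) in CD8 cells, and none was called. Of 15 B cell genes, Ms4a1, Pax5, Cd79b, Blnk and Bank1 were called higher in old CD4 cells, and Cd22 and Cd72 in old CD8 cells.

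**Figure D3:**
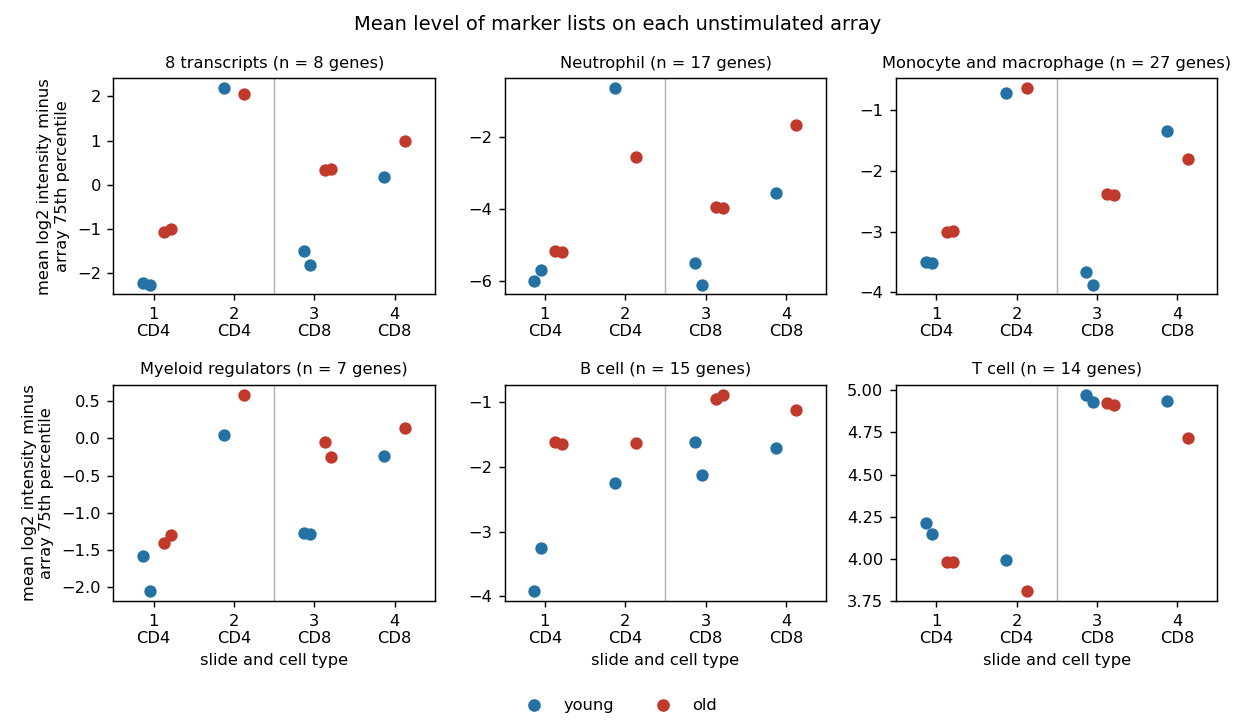
Mean level of the 8 transcripts and of 5 marker lists on each array at 0 h (vertical axis, mean log2 intensity minus the array's 75th percentile) by slide and cell type, blue for young and red for old. The 8 transcripts, neutrophil and monocyte lists are higher on slide 2 than on slide 1 at both ages. The mean of the T cell list, which holds Cd4, Cd8a and Cd8b1, differs mainly by cell type.

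CD8 cells were not distinguished from CD4 cells by any of the 8 at 0 h, where calls reached 13.6% of all genes (8.73% with CD8 above CD4, 4.9% with it lower). The differences, CD8 minus CD4 and averaged over age, ran from -1.64 ± 0.75 for Itgam (adjusted p = 0.18) to 1.75 ± 0.74 for Plbd1 (adjusted p = 0.15). Without CD4 young replicate 3, the slide 2 array, Plbd1 was called higher in CD8 cells (2.29, adjusted p = 0.046). Each slide holds 1 cell type. With slide as a random block, added after seeing the data, 0 of 8 were again called.

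Among the partners of these proteins, Csf1 and Tlr4 were called between the ages at 0 h in the fit without slide. With the same-slide arrays of a group averaged first, no gene was called in either cell type. Of 9 partner and ligand genes, Csf1, the ligand of Csf1r, was higher in old CD4 cells (1.60, adjusted p = 0.032), and Tlr4, the signalling receptor that Cd14 serves, was higher in old CD4 (2.11, adjusted p = 0.017) and old CD8 cells (1.97, adjusted p = 0.013). Cd14 itself was -0.84 in CD4 and -0.21 in CD8 cells, neither called. Itgb2, the beta chain that pairs with Itgam, was -0.41 and 0.47, and Ptpn6, a phosphatase recruited by Pirb, -0.61 and 0.27. Il34, Ly96, Tlr2, Ptpn11 and Ager, a receptor for S100 proteins, were called in neither, like Itgb2 and Ptpn6. Between slides 2 and 1 the partners had a median of 0.15, with 4 of 9 higher and 2 lower. Csf1 was also lower in CD8 than in CD4 cells (-3.17, adjusted p = 1.2e-05).

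After stimulation most of the 8 transcripts fell in CD8 cells, and by 72 h Lyz2, S100a8, S100a9 and Pirb had fallen in both cell types to the background of the arrays. For Pirb in CD8 cells at 72 h this rests on the young array alone. Over 4 times and 8 genes in CD8 cells, 20 of 32 differences from 0 h were called and each was lower. At 4 h they were 2 of 8 (27.3% of all genes, 13% lower), at 12 h 5 (30.2%, 14.2% lower), at 24 h 7 (33.1%, 17.1% lower) and at 72 h 6 (28%, 14.4% lower). In CD4 cells 9 of 32 were called, also each lower: 1 at 4 h (32.1%, 16.4% lower), 0 at 12 h (40.6%), 3 at 24 h (44.7%, 19.6% lower) and 5 at 72 h (39.1%, 16.9% lower). Each time after 0 h lies on its own slide, apart from CD8 cells at 12 h on 2 slides. With slide as a random block, added after seeing the data, 7 and 18 of 32 were called, each lower.

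Lyz2 was called lower at 24 and 72 h in both cell types. In CD8 cells it went from 3.76 ± 1.11 at 0 h (SD, n = 6) to 2.74 in old and -0.13 in young cells at 4 h, and to -3.52 and -3.15 at 12 h (-7.10 ± 1.43 against 0 h, adjusted p = 0.00091). At 24 h it was not well above background and at least 486-fold lower than at 0 h (adjusted p = 1.8e-05), and at 72 h at least 269-fold lower. Such a bound compares the mean at 0 h with the dimmest signal still detected on each later array, or with the measured signal where that was brighter. It holds for the mean over both slides and not for each array at 0 h. In CD4 cells Lyz2 stood at 2.83 in old and 3.96 in young cells at 4 h, at 0.24 and 0.74 at 12 h and at -1.72 and 0.10 at 24 h (-3.72 ± 1.43, adjusted p = 0.040). At 72 h it was at background in both ages, at least 124-fold below the mean at 0 h (adjusted p = 0.00017). The CD4 arrays behind that mean ran from -0.39 on slide 1 to 7.36 on slide 2, so the fall from slide 1 alone is smaller.

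S100a8 and S100a9 were still above background at 24 h in both CD4 arrays, and S100a9 in the old CD8 array alone. In CD4 cells S100a9 stood at 4.64 in old and 6.74 in young cells at 4 h, 3.85 and 5.47 at 12 h, and 0.49 and 2.99 at 24 h. At 72 h it was at background, at least 110.0-fold below the mean at 0 h (adjusted p = 0.00080), whose arrays ran from -0.78 on slide 1 to 7.28 on slide 2. In CD8 cells it stood at 5.87 and 0.98 at 4 h, -0.40 and -1.15 at 12 h and -4.58 and -5.60 at 24 h (-8.31 ± 1.74, adjusted p = 0.0010, the young array not above background), and at 72 h at least 185-fold lower. Whether the time course differs between the cell types was not tested. S100a8 in CD4 cells stood at 2.01 in old and 3.89 in young cells at 4 h, 0.93 and 2.57 at 12 h, -3.16 and -0.74 at 24 h, and below background at 72 h, a called fall (adjusted p = 0.033). In old CD8 cells S100a8 stood at 2.21 at 4 h and -3.93 at 12 h, and in young ones at -3.11 at 4 h and below background from 12 h on. At 24 h it was at least 29.7-fold lower in CD8 cells (adjusted p = 0.012).

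Pirb and Plbd1 fell in CD8 cells from 12 h and 4 h on. Pirb was -2.93 ± 0.89 against 0 h at 12 h (adjusted p = 0.018). At 72 h the young CD8 array was not above background, and the spot of the old array was flagged and dropped. The bound there, 26.4-fold lower, puts the dimmest signal detected on the old array in place of the missing spot. It therefore does not hold for old cells. In CD4 cells Pirb was lower at 24 h (-2.62, adjusted p = 0.023) and at least 24.9-fold lower at 72 h. Plbd1 in CD8 cells was -3.99 ± 0.86 at 4 h (adjusted p = 0.0016), -6.87 at 12 h, where the young array was not above background, and at least 99.8-fold lower at 24 h. In CD4 cells Plbd1 stayed above background to 72 h, between -3.20 and -0.42 on the 8 stimulated arrays, and was called at no time.

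Cd14 and Csf1r followed other courses. Csf1r was lower at 4 h in CD4 (-2.21 ± 0.49, adjusted p = 0.0017) and CD8 cells (-1.59, adjusted p = 0.021). In CD8 cells it stayed lower at all 3 later times (-2.32, -2.05 and -2.30, with 1 of 2 arrays not above background at 12 and at 72 h), while in CD4 cells it was called at no later time, with -0.36 at 72 h. Cd14, which is induced by bacterial products in macrophages, had positive differences at 4 h that were not called, at 2.20 ± 1.05 in CD4 (adjusted p = 0.12) and 2.75 ± 1.05 in CD8 cells (adjusted p = 0.060). Both CD8 arrays at 4 h (-1.11 in old and -1.33 in young cells) lay above all 6 at 0 h. Itgam was lower in CD4 cells at 24 h (at least 3.00-fold) and 72 h, and in CD8 cells at 12 and 24 h, all at background. In CD8 cells the bounds were only 1.35-fold at 12 h and 1.86-fold at 24 h. The mean there was -4.27 at 0 h, when the slide 4 arrays were also not well above background.

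What the CD4 cells show depends on the slide at 0 h. Against the 4 arrays of slide 1 alone, 14 of 32 differences were called, 7 of them higher: S100a8 at 4 h (adjusted p = 0.0029) and 12 h, without a size since 2 of the 4 arrays were at background, S100a9 at 4 h (4.81) and 12 h (3.78), Lyz2 at 4 h (2.28) and Cd14 at 4 h (2.86) and 12 h (2.77). Against the 2 arrays of slide 2 alone, 21 were called and none was higher. There S100a8 stood at -0.85 at 4 h and Lyz2 at -3.12 (adjusted p = 0.030). The stimulated CD4 arrays were read with the scanner model of slide 2. Neutrophil genes were well above background in 13 (old) and 15 (young) of 17 cases in CD4 cells at 4 h, and in 3 and 1 at 72 h. In CD8 cells the counts were 12 and 6 at 4 h, and 1 and 3 at 72 h. Genes of other lists were called lower in CD8 cells too. At 12 and 24 h these were 13 and 14 of 27 monocyte and macrophage genes and 8 and 10 of 15 B cell genes. They were 3 and 3 of 5 erythroid and platelet genes and 5 and 7 of 14 T cell genes. Of 17 neutrophil genes 0 and 2 were called lower, though at each time only 1 had a positive difference (medians -1.44 and -1.92). The medians of the B cell genes were -1.45 and -2.06. Of 5 basophil and mast cell genes 0 and 0 were called lower (medians -1.07 and -1.67). Dendritic cell genes gave 1 and 2 of 7, and NK cell genes 1 and 3 of 6. Over all genes 14.2% and 17.1% were called lower. The part of these lists in the course of the 8 transcripts was not tested.

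**Figure D4:**
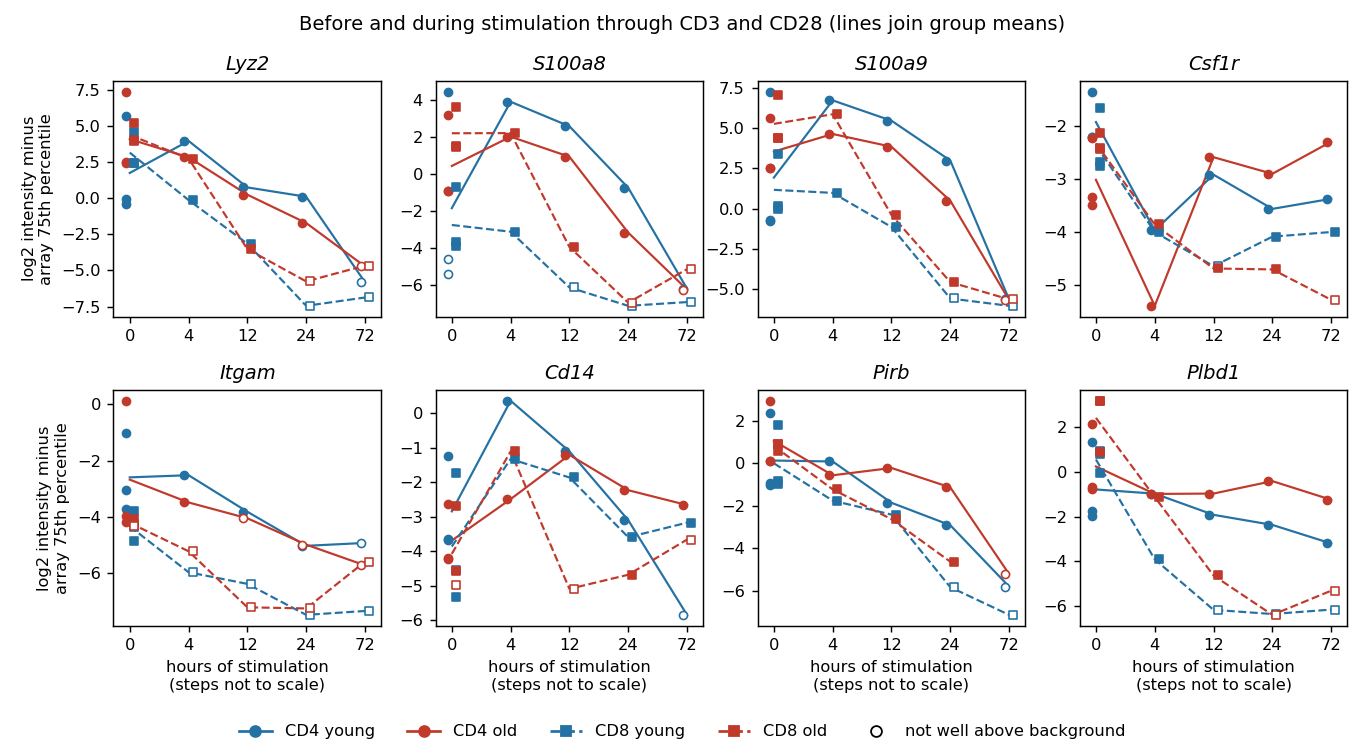
Level of each transcript (log2 intensity minus the array's 75th percentile) before and during stimulation, with circles and solid lines for CD4, squares and dashed lines for CD8, blue for young and red for old; lines join group means and open points are not well above background. Lyz2, S100a8, S100a9 and Pirb end at background at 72 h in both cell types, apart from a missing Pirb value in old CD8 cells, whereas Plbd1 stays above background in CD4 cells and Cd14 is highest at 4 or 12 h in each group's line.

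Between the ages, stimulated CD4 and CD8 cells differed in direction for the calprotectin genes, without a called difference. In CD8 cells at 4 h S100a8 was 39.7-fold and S100a9 29.8-fold higher in the old array. At 0 h they were 38.6-fold and 19.9-fold higher on slide 3, and 19.5-fold and 12.9-fold higher on slide 4. In CD8 cells at 12 h the log2 difference was 0.75 for S100a9 and 2.18 for S100a8, whose young array was at background. At 24 h it was 1.02 for S100a9, again with the young array at background, and S100a8 was detected in neither age. In CD4 cells at 4 h the old array was lower, by a log2 difference of -1.88 for S100a8 and -2.09 for S100a9, and so it was at 12 h (-1.64 and -1.62) and 24 h (-2.42 and -2.50). Each of these rests on 1 array per age. Over the 4 times together, old minus young was 2.36 ± 0.71 for S100a8 in CD8 cells (adjusted p = 0.33) and -1.50 ± 0.71 in CD4 cells (adjusted p = 0.58). For S100a9 it was 1.77 ± 0.71 in CD8 (adjusted p = 0.50) and -1.57 ± 0.71 in CD4 cells (adjusted p = 0.56). None of the 8 was called in either (0.113% of all genes in CD4, 0.0103% lower in old; 0.412% in CD8 cells, 0.0823% lower). The medians of the 8 were -0.16 and 0.89, beside 0.03 and -0.05 for all genes. The CD4 median turned to 0.18 without 4 h and to 0.16 with the filter of 14 arrays, and the CD8 median to -0.05 with normexp background correction. Of the lists, only Ccr2 was called in both cell types (2.33 and 2.35, both higher in old) and Tlr4 in CD8 cells (1.62, adjusted p = 0.035).

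**Figure D5:**
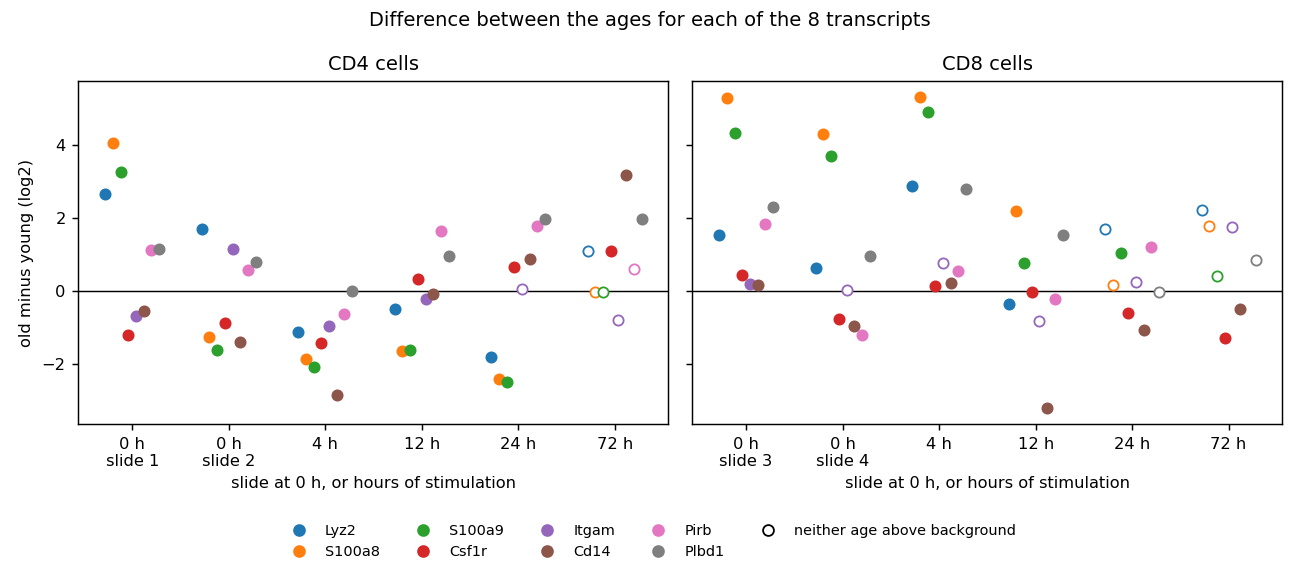
Old minus young (log2) for the 8 transcripts on each slide at 0 h and at each time after stimulation, in CD4 (left) and CD8 cells (right); open points have neither age above background. S100a8 and S100a9 lie above 0 on slides 1, 3 and 4 and in CD8 cells at 4 h, and below 0 in CD4 cells on slide 2 and at 4, 12 and 24 h.

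Over the 20 groups, the lowest mean of each of the 8 but Csf1r lay in a group not above background. Lyz2 and Plbd1 were highest in old CD8 cells at 0 h, Pirb in old CD4 cells at 0 h and Csf1r in young CD4 cells at 0 h. S100a8, S100a9, Itgam and Cd14 were highest in young CD4 cells at 4 h, a group with a single array. The highest single array, however, was the young CD4 array of slide 2 at 0 h for S100a8 (4.43) and S100a9 (7.28). For Itgam it was the old CD4 array of that slide (0.13), and only for Cd14 the 4 h array. In the order of the groups, neighbours differed by less than the pooled standard deviation at 0 h in all 19 cases for Lyz2, S100a8 and Itgam, in 18 of 19 for S100a9, Cd14 and Plbd1, in 17 of 19 for Csf1r and in 17 of 18 for Pirb. Neighbours among 20 sorted means lie close by construction, and the standard deviation at 0 h holds the difference between slides.

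Among the 28 pairs of the 8 genes, Pearson's r over the 28 arrays had a median of 0.70, from 0.02 (Cd14 with Plbd1) to 0.96 (S100a8 with S100a9). Over the 12 arrays at 0 h it was 0.55, from -0.10 to 0.99 for the same pairs. These are descriptions over arrays that share slides and, at 0 h, pools. Set against the mean of the other 7 over 28 arrays, Lyz2 (0.95), S100a9 (0.92) and Pirb (0.91) followed it most closely, and Csf1r (0.51) and Cd14 (0.34) least.

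Genes outside the 8 with a closely similar profile over the 28 arrays included Igkv1-133 (r = 0.92), Lyz1, Hp, Slpi, Lyn, BC089618, Clec7a, Jchain and Iglv1 (r = 0.89 for the last). Besides myeloid genes such as Lyz1, Hp (haptoglobin) and Clec7a (a receptor for fungal glucan), these include immunoglobulin genes of B and plasma cells. Over the 12 arrays at 0 h they were Cebpd (r = 0.99), Ifitm6, C3, Ceacam2, Pygl, Anxa3, Csf2rb2, Svip, Mgst1 and Chil3 (r = 0.95). Cebpd encodes a C/EBP transcription factor, and Chil3 a secreted protein of macrophages and neutrophils. The likeness was measured among 17321 genes with values on all 28 arrays and 18721 with values on all 12.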

How the data were processed

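The deposited intensity of each spot is the processed signal of Agilent Feature Extraction, from which background was already subtracted (version 10.1.1.1 for 18 arrays and 9.5.1.1 for 10, per the file headers). A second table, the series matrix, has log2 values deposited by the authors, and the software behind them is not given in the sources used here. Flagged spots were dropped and repeat spots averaged. Probes were named through a RefSeq table of GRCm38.p6 by accession (22951), symbol (6659) or synonym (3109); the remaining 8455 stay as the files name them. From log2 of the processed signal the 75th percentile of the array was subtracted. Tests came from limma 3.58.1 under R 4.3.3 (lmFit, eBayes; Benjamini-Hochberg over all genes, threshold 0.05), and the fits were tested on simulated data. At 0 h the 12 arrays share 1 estimate of the spread; each time is set against 0 h over all 28 arrays, and age after stimulation is fitted over 16 arrays with a mean per cell type and time. The 8 genes and the marker lists were chosen with earlier results of these data known, so no p-value adjusted over the lists is given. Named genes are the 8, their partners, the 3 largest and 3 smallest age differences of a list and the 10 nearest profiles (1 item is not reported here); B cell genes called were named after their values were seen, and so were the motifs and the comparisons of slides. Replicate numbers follow the slides in CD4 cells (correlations of same-numbered deviations 0.49 to 0.68) but not in CD8 cells (-0.41 to 0.08), so they were not taken as pairs. Alternatives were median and quantile scaling, normexp with an offset of 50, other filters, the mean of all probes, the series matrix, slide and replicate blocks, each slide alone and leaving out each array or time. Since 18 files have no mean signal, normexp used the median signal. The number of arrays limits the precision. Other tools were the R package data.table (1.17.8), Python 3.11.15, pandas 2.3.3, numpy 2.4.6 and matplotlib 3.10.9.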

Additional observations from a re-analysis of the deposited data

Results flagged for a closer look

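After stimulation the age difference of S100a8 was larger in CD8 than in CD4 cells by 3.85 on the log2 scale, and that of S100a9 by 3.33. What drew attention was the direction: at 4, 12 and 24 h the old CD4 array lay below the young one for both genes, whereas the old CD8 array lay above the young one, with 1 array per age and time. At 72 h, and for S100a8 at 24 h in CD8 cells, neither age was above background. The test of the difference itself, over the 4 times, did not pass (limma adjusted p = 0.999 for both, with 0 of all genes called and 777 at an unadjusted p under 0.05).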

How the results depend on the processing

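Of 171 alternative counts of called genes among the 8, 154 kept to within 1.5 times of the reported count, and of 1919 alternative single values 1671 kept their direction and their side of the threshold. A further 101 values turned sign and were called neither before nor under the alternative. Without a change of sign, 89 passed the threshold only under the alternative and 50 lost it. The other 8 reversed, with a change of sign and a call on at least 1 side. Changes in size alone were not counted. The age difference at 0 h, with 0 called, gave 3 (CD4) and 4 (CD8) with slide as a block, 6 and 7 on slides 1 and 2 alone, and 6 and 5 on slides 3 and 4 alone. The cause of the following changes was not tested, apart from a match of the series matrix columns to the arrays. The slide change of the age difference in CD8 cells (3) became 7 with median scaling, 5 with quantile normalization and 5 of 7 with a filter of 14 arrays, which drops Itgam; in CD4 cells (4) it became 2 with no filter and 2 with the mean of all probes, and 2 to 4 when an array was left out, as in CD8 cells (2 to 4). For CD8 against CD4 cells, leaving out an array gave 0 to 1. The time course in CD8 cells (20) fell to 12 with normexp; in CD4 cells (9) it was 14 against slide 1 and 21 against slide 2. The replicate block left the age difference at 0 called in both cell types and changed no call of the 8; over all genes it called 149 in CD4 cells against 337. Reversed values were Csf1r at 72 h in CD8 cells (0.40 with normexp), Cd14 (2.77) and S100a9 (0.22) at 24 h in CD8 cells with the series matrix, S100a8 (-1.26) and S100a9 (-1.63) in CD4 cells on slide 2, Csf1r (-0.77) and Pirb (-1.22) in CD8 cells on slide 4, and Lyz2 at 4 h in CD4 cells against slide 2 (-3.12). In 6 of 28 columns of the series matrix, all of stimulated CD8 cells, the values match the array of another time. Both CD8 columns labelled 24 h match the 4 h arrays (r = 0.98 in old and young cells) and not their own (0.02 and 0.08). The Cd14 and S100a9 values of the series matrix above therefore compare 4 h with 0 h. Column medians ran from -0.97 to 0.49, and the centring is not known. Over all genes, calls between the ages at 0 h ranged over the settings from 0 to 7996 in CD4 (337 reported) and 0 to 5984 in CD8 cells (430), from 248 to 3561 between cell types (2650) and from 2489 to 10527 between times. Signal over background limits Itgam most: it passed on 13 of 28 arrays.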
